A study of Mus musculus with 9 samples.

Results

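The subunits of the oxidative phosphorylation machinery were examined across activated hepatic stellate cells (aHSCs), the collagen-producing cells of the injured liver, that had been sorted by WT1 level. Members were chosen by gene symbol alone: every probe whose symbol began with Nduf, Uqcr or Atp5, or with Cox followed by 4, 5, 6, 7 or 8, or was Sdha, Sdhb, Sdhc or Sdhd. The rule took 119 of the 45281 gene probes on the Illumina MouseWG-6 v2.0 array, carrying 81 of its 30869 gene symbols. Of these, 101 probes of 74 symbols were detected on at least 3 of the 9 arrays and were tested among 20573 probes. No probe of Cox4i2, Cox7b2, Cox8c, Ndufs1, Sdha, Uqcrfs1 or Uqcrq passed that filter, and nothing can be said here of their levels. The symbols also brought in 8 kept probes of genes that are not subunits: Ndufaf1, Ndufa12l (now Ndufaf2), Cox7a2l, Atp5s (now Dmac2l), Atp5sl (now Dmac2) and Cox4nb (now Emc8, a gene of an endoplasmic reticulum complex).

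All 9 samples are labelled as coming from male WT1GFP/+ mice on a C57/Bl6 background, although the study's methods name animals of both sexes for its in vitro work. In these mice a knock-in green fluorescent protein (GFP) reports WT1, so that the WT1-negative cells carried the reporter allele too. WT1-high (GFP high) and WT1-intermediate (GFP low) aHSCs were sorted, 3 arrays each, from livers scarred by repeated carbon tetrachloride (CCl4) injury. WT1-negative (GFP negative) aHSCs were sorted, 3 arrays, after stellate cells of uninjured liver had been activated in culture on plastic for 7 days. WT1 status against the WT1-negative group therefore coincided with origin (injured liver or culture dish), and the 2 cannot be told apart in either comparison with it. Each array measured the RNA of a sorted cell population, so fewer cells of a type and less RNA per cell cannot be told apart either.

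Oxidative phosphorylation passes electrons from NADH (complex I) and succinate (complex II) through ubiquinone, complex III and cytochrome c to oxygen at complex IV, and the proton gradient so built drives ATP synthase. Complexes I, III, IV and ATP synthase are mosaics of nuclear-encoded subunits and a few subunits encoded in mitochondrial DNA, whereas complex II is wholly nuclear-encoded. Several complex IV subunits exist as isoforms of heart and skeletal muscle or of other tissues.

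The probes of 2 complex I genes are printed here because the direction of the measured change depended on which probe of the gene was read, and the probes differed in base composition. Ndufa5 encodes an accessory subunit of the peripheral arm and Ndufs4 an accessory subunit of the same arm. Each sequence is the 50-base probe as deposited, 5′ to 3′, with G and C in capitals. The density of capitals shows the G and C content beside which the results below are set. The files place Ndufa5 on chromosome 6 and Ndufs4 on chromosome 13, and give no probe coordinates.
Ndufa5 probe ILMN_2691460, 19 G or C: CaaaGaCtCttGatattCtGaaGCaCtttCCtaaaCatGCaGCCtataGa
Ndufa5 probe ILMN_1216007, 29 G or C: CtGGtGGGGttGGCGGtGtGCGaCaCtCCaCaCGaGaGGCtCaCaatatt
Ndufs4 probe ILMN_2663694, 21 G or C: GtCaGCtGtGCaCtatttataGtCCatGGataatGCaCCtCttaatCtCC
Ndufs4 probe ILMN_2640944, 22 G or C: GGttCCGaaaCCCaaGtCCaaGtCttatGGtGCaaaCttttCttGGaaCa
Ndufs4 probe ILMN_2900025, 23 G or C: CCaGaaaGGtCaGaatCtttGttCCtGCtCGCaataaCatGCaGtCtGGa
Ndufs4 probe ILMN_1234521, 29 G or C: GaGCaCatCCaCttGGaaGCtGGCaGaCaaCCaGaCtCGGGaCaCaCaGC

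Raw mean signal ran from 147.5 to 288.9 intensity units over the arrays, and 17253 to 19774 gene probes were detected on each, of which 96 to 101 were members. Levels here are log2 values of background-corrected, quantile-normalised probe intensity, and each difference is a difference of group means on that scale. The marker lists moved with the groups, and their part in the results that follow was not tested. Stellate markers averaged 7.47 to 8.06 on all arrays, but single genes went both ways, with 3 of 8 higher and 3 lower in each comparison with WT1-negative aHSCs (−1.82 to 2.70 and −2.59 to 2.39) and 2 higher and 1 lower in WT1-high than in WT1-intermediate aHSCs. Skeletal muscle markers averaged 9.40 to 9.77 in the WT1-negative arrays, with 6 of 6 genes detected on each, against 4.28 to 4.38 in the in vivo arrays, where 1 gene was detected on 1 array and none on the rest. Those 6, of 7 on the array, passed the detection filter only through the WT1-negative arrays, so their detection there was set by the filter. Cell cycle markers averaged 8.18 to 8.46 in the WT1-negative arrays against 4.65 to 5.87 in the in vivo arrays. In the other direction, mesothelial markers averaged 10.89 to 11.85 in vivo against 4.48 to 4.70, hepatocyte markers 5.64 to 7.77 against 4.28 to 4.57, and T and NK cell markers 6.44 to 7.16 against 4.28 to 4.36. Macrophage markers separated the in vivo groups, at 7.50 to 7.91 in WT1-high, 9.46 to 9.94 in WT1-intermediate and 9.50 to 9.60 in WT1-negative aHSCs. The like means of the last 2 groups covered genes that moved apart, since in WT1-intermediate against WT1-negative aHSCs 2 of the 8 rose and 2 fell (−2.78 to 4.42). Endothelial markers averaged 5.32 to 5.69, 6.02 to 6.11 and 6.14 to 6.43 in the same order of groups.

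In both comparisons with WT1-negative aHSCs, more subunit probes fell than rose. A probe is said to have risen or fallen where its limma adjusted p, corrected over all 20573 probes, was under 0.05. In WT1-high against WT1-negative aHSCs, 21 of the 101 member probes rose (20.8%) where 26.5% of all tested probes did, and 51 fell (50.5%) where 33.1% of all tested probes did. In WT1-intermediate against WT1-negative aHSCs, 21 rose against 24.5% of all probes and 46 fell (45.5%) against 33.5% of all probes. With arrays scaled to a common median in place of quantile normalisation, 15 rose and 67 fell in the latter comparison, beside 12.3% and 41.0% of all probes. The median log2 difference of the members was −0.42 and −0.41, beside −0.10 and −0.13 for all tested probes, and single probes ranged from −2.10 to 2.56 and from −1.70 to 2.60. Both comparisons used the same 3 WT1-negative arrays, so their values are given side by side and are not independent of each other. Taking only the brightest probe of each gene, 13 of 74 genes rose and 40 fell in WT1-high, and 13 rose and 33 fell in WT1-intermediate aHSCs.

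The median level over the kept member probes was 9.32, 8.94 and 9.53 on WT1-high arrays 1, 8 and 29, 9.47, 9.10 and 9.36 on WT1-intermediate arrays 1, 8 and 30, and 9.84, 9.70 and 9.70 on WT1-negative arrays 3, 11 and 14. All 3 WT1-negative arrays lay above all 6 in vivo arrays, although the median over all tested probes was 5.99 on every array. WT1-high replicate 8 was the lowest.

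**Figure D1:**
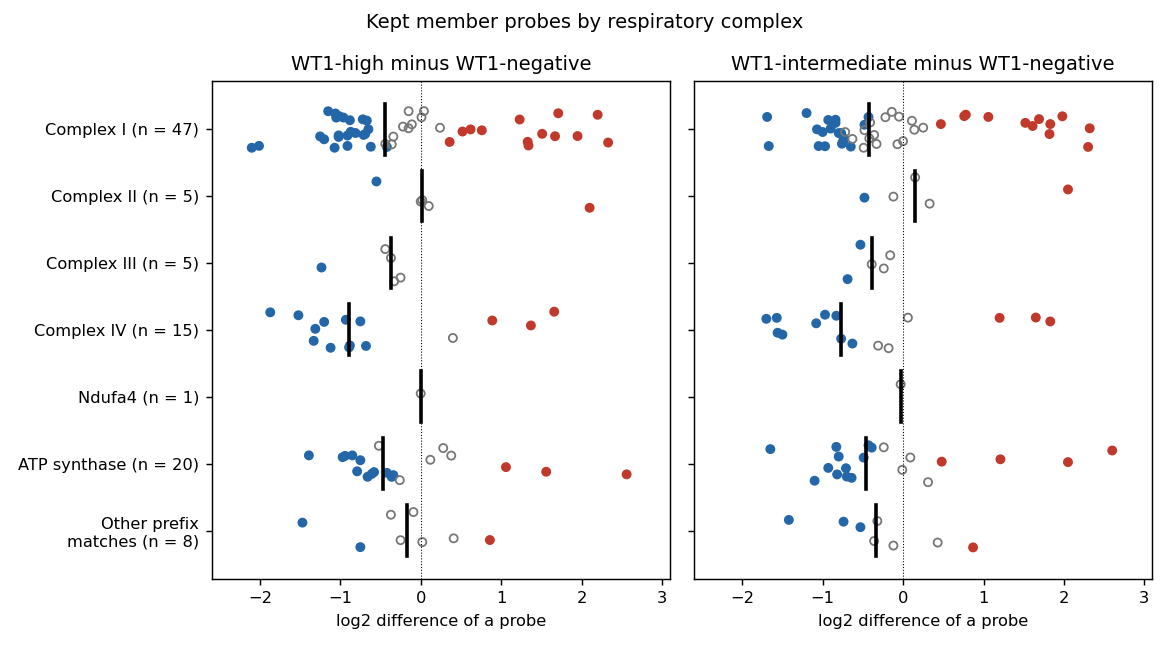
Log2 difference (horizontal axis) of each kept member probe, by complex (rows, with the number of probes), in WT1-high and WT1-intermediate against WT1-negative aHSCs. Red points rose and blue points fell at an adjusted p under 0.05, open points did neither, and vertical bars are medians. Every row with more than 5 probes holds probes that rose and probes that fell.

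Complex I moved in both directions. Of its 47 kept probes, 13 rose and 24 fell in WT1-high aHSCs (median −0.44), and 12 rose and 19 fell in WT1-intermediate aHSCs (median −0.42). The rises, 27.7% and 25.5%, lay near the 26.5% and 24.5% of all tested probes. The falls were 51.1% and 40.4%, beside 33.1% and 33.5% of all tested probes. The rises were led by accessory subunits of the membrane arm. Ndufb9 measured 8.22, 8.00 and 8.64 in WT1-high, 8.96, 7.91 and 8.38 in WT1-intermediate, and 6.48, 5.46 and 6.33 in WT1-negative aHSCs. Every in vivo array was above every cultured one, and the rise was 2.20 ± 0.31 log2 units in WT1-high (SE, 4.58-fold, adjusted p = 0.0001) and 2.32 ± 0.31 in WT1-intermediate aHSCs (adjusted p = 7.7e-05). Ndufb4, detected on 2 of the 3 WT1-negative arrays, rose by 2.33 and 2.30, Ndufb5 by 1.67 and 1.83, and Ndufb2 by 1.34 and 1.69 in the same order. Ndufb10 measured 8.56, 8.61 and 9.53, then 8.62, 8.97 and 9.45, then 7.85, 6.28 and 7.43, a rise of 1.71 ± 0.39 (adjusted p = 0.0027) and 1.82 ± 0.39 (adjusted p = 0.0019). The groups did not overlap, and the second Ndufb10 probe rose as well, by 1.33 and 1.52.

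Other complex I subunits fell. Ndufa3, an accessory subunit, measured 9.26, 8.09 and 9.62 in WT1-high, 9.70, 9.10 and 9.19 in WT1-intermediate, and 10.97, 10.98 and 11.04 in WT1-negative aHSCs. It was 4.03-fold lower in WT1-high (−2.01 ± 0.32, adjusted p = 0.00026) and 3.18-fold lower in WT1-intermediate aHSCs (−1.67 ± 0.32, adjusted p = 0.001), and its second probe fell by 2.10 and 1.69. Ndufa10, another accessory subunit, measured 9.49, 9.45 and 9.44, then 9.38, 9.33 and 9.67, then 10.62, 10.71 and 10.65. It was lower on every in vivo array, and fell by 1.20 ± 0.14 in each comparison (adjusted p = 2.3e-05 in WT1-high and 2.8e-05 in WT1-intermediate aHSCs). Ndufc1 fell by 1.25 and 1.00, Ndufb8 by 1.15 and 0.84, and Ndufa12 by 1.02 and 1.05. Arrays of the compared groups did not overlap for any of these 3.

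In complex II the subunits went different ways. Sdhd, a membrane anchor, measured 7.75, 8.20 and 8.17 in WT1-high, 8.12, 7.68 and 8.16 in WT1-intermediate, and 6.32, 5.56 and 5.93 in WT1-negative aHSCs, with no overlap. It rose by 2.10 ± 0.22 (4.30-fold, adjusted p = 9.9e-06) and 2.05 ± 0.22 (adjusted p = 1.5e-05). Its partner anchor Sdhc fell by 0.55 (adjusted p = 0.016) and 0.48 (adjusted p = 0.033). The Sdhc call was lost in WT1-high aHSCs without WT1-high replicate 8 or WT1-negative replicate 3 (adjusted p of 0.057 to 0.059), and in WT1-intermediate aHSCs without WT1-intermediate replicate 8 (a difference of −0.30) or without any 1 of the WT1-negative arrays (0.062 to 0.12 over the 4 fits). Sdhb, the iron-sulfur subunit, differed by 0.00 ± 0.22 and 0.15 ± 0.22 and passed the test in neither comparison.

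Complex III had 0 of 5 probes up in either comparison, 1 down in WT1-high and 2 down in WT1-intermediate aHSCs. Its median differences were −0.37 and −0.39, beside −0.42 and −0.41 for all members. Its falls, 20% and 40%, stood beside 33.1% and 33.5% of all tested probes. Uqcrb, an accessory subunit, measured 5.88, 5.84 and 5.49, then 6.32, 6.64 and 5.89, then 6.75, 7.03 and 7.16, and every in vivo array was below every cultured one. It fell by 1.24 ± 0.21 (adjusted p = 0.00034) and 0.69 ± 0.21 (adjusted p = 0.014). Uqcrc2, a core subunit, fell by 0.53 in WT1-intermediate (adjusted p = 0.01) and differed by −0.25 in WT1-high aHSCs (adjusted p = 0.17).

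Complex IV had the lowest median of the complexes, −0.89 in WT1-high and −0.77 in WT1-intermediate aHSCs, with 11 and 9 of its 15 probes down and 3 up in each. The falls were 73.3% and 60%, beside 33.1% and 33.5% of all tested probes. The rises were 20% in each, beside 26.5% and 24.5%. Among its widely expressed subunits, Cox6a1 measured 10.41, 9.98 and 10.60, then 10.20, 10.33 and 9.95, then 11.52, 11.82 and 11.65, a fall of 1.33 ± 0.19 (adjusted p = 9e-05) and 1.5 ± 0.19 (adjusted p = 4.3e-05). The in vivo and cultured arrays did not overlap, and the second Cox6a1 probe fell by 1.31 and 1.57. Cox6b1 fell by 1.20 and 1.08 and Cox4i1 by 0.75 and 0.63. Cox5a fell by 0.68 in WT1-high aHSCs and differed by −0.31 in WT1-intermediate aHSCs (adjusted p = 0.12). The 3 that rose were Cox7b (1.66 and 1.83), Cox6c (1.37 and 1.65) and Cox7a2 (0.89 and 1.20). The Cox7a2 rise in WT1-high aHSCs lost its call without WT1-negative replicate 11 (0.70, adjusted p = 0.052).

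Of the striated muscle isoforms of complex IV, Cox7a1 and Cox8b were lower in vivo. Cox7a1 measured 4.76, 4.65 and 5.54 in WT1-high, 5.52, 4.81 and 5.11 in WT1-intermediate, and 7.19, 6.53 and 6.84 in WT1-negative aHSCs, without overlap, and fell by 1.87 ± 0.27 (adjusted p = 0.00011) and 1.70 ± 0.27 (adjusted p = 0.00024). Cox8b measured 5.37, 6.23 and 5.86 in WT1-negative aHSCs and was not above background on any of the 6 in vivo arrays (4.15 to 4.42). Set against the lowest level detected there, it was at least 2.43-fold lower in WT1-high and at least 2.41-fold lower in WT1-intermediate aHSCs. Its probe passed the detection filter only through the WT1-negative arrays, where it was high, so its test is no support for a fall. These falls lay beside the skeletal muscle markers, of which 6 of 6 were detected on the WT1-negative arrays and 0 on 5 of the 6 in vivo arrays. Like Cox8b, these markers passed the detection filter only through the WT1-negative arrays, so their detection there was set by the filter. The part of muscle-type cells or of muscle gene expression in the fall was not tested. Cox6a2, the third of these isoforms, did not behave so: it measured 7.77, 6.23 and 7.51, then 8.31, 7.63 and 7.69, then 7.65, 8.26 and 8.27, and the groups overlapped. Its difference was −0.89 in WT1-high (adjusted p = 0.049) and −0.18 in WT1-intermediate aHSCs (adjusted p = 0.68), and without WT1-high replicate 8 the former was −0.42 (adjusted p = 0.19). Leaving out WT1-intermediate replicate 8 or 30, or WT1-negative replicate 11 or 14, also ended that call. Cox6b2, known from testis, differed by 0.40 and 0.06 and passed in neither, although without WT1-negative replicate 11 its WT1-high difference was 0.69 (adjusted p = 0.034). Ndufa4, found in complex IV despite its name, differed by 0.00 ± 0.16 and −0.03 ± 0.16.

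ATP synthase had 3 of 20 probes up and 12 down in WT1-high aHSCs (median −0.47), and 4 up and 12 down in WT1-intermediate aHSCs (median −0.46). The falls were 60% in each, beside 33.1% and 33.5% of all tested probes, and the rises 15% and 20%, beside 26.5% and 24.5%. Atp5a1, the alpha subunit of the catalytic head, had the largest rise among the members in both comparisons. It measured 9.48, 9.51 and 9.60 in WT1-high, 9.95, 9.31 and 9.46 in WT1-intermediate, and 7.54, 6.45 and 6.93 in WT1-negative aHSCs. The groups were far apart, at 2.56 ± 0.25 (5.88-fold, adjusted p = 6.8e-06) and 2.60 ± 0.25 (6.06-fold, adjusted p = 7.5e-06). Atp5e, the epsilon subunit, rose by 1.56 and 2.05. Of the ring-forming c subunits, Atp5g2 differed by −0.26 and −0.01 and passed in neither. Atp5g3 fell by 0.34 (adjusted p = 0.041) and 0.39 (adjusted p = 0.024), and the calls rested on few arrays: in WT1-high aHSCs the call was lost in 8 of the 9 fits that each left out 1 array, all but the fit without WT1-intermediate replicate 8, and in WT1-intermediate aHSCs in 5 of them, those without WT1-intermediate replicate 1 or 8 or any 1 WT1-negative array, with differences of −0.40 to −0.32 throughout.

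**Figure D2:**
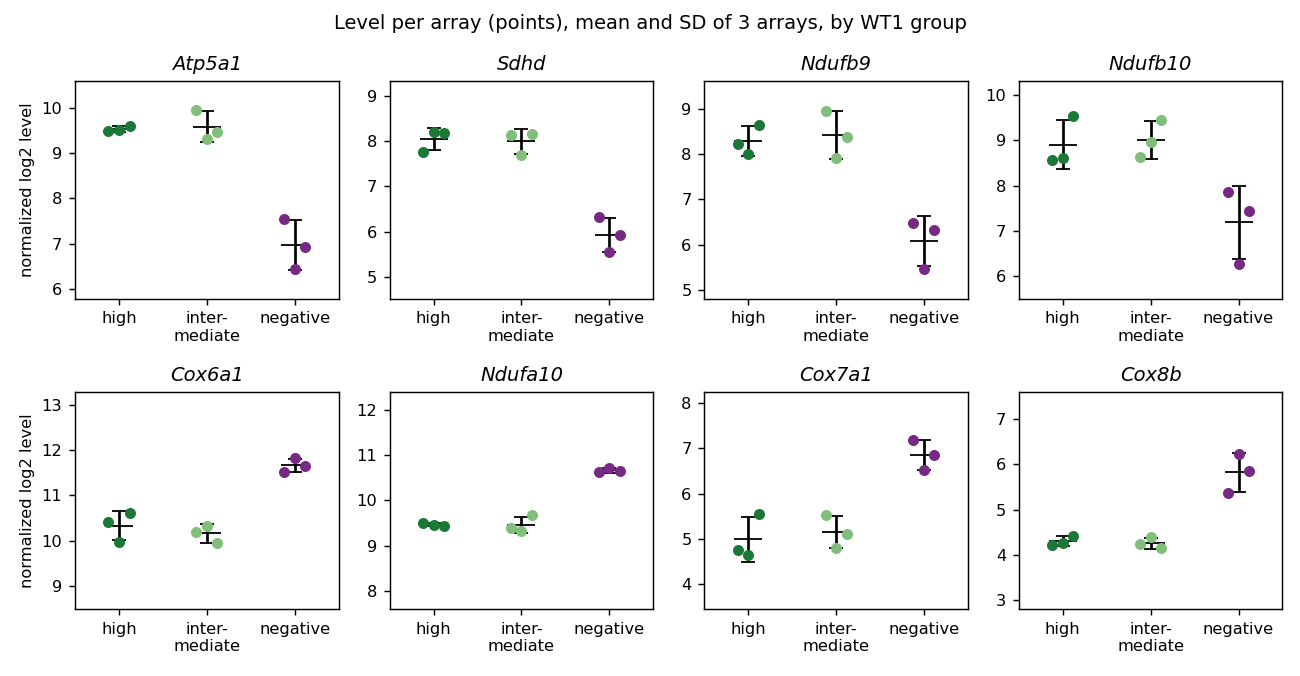
Normalised log2 level (vertical axis, each panel with its own range) of 8 members on each array (points), with the mean and SD of the 3 arrays of each WT1 group (bars). The upper 4 genes were higher on every in vivo array than on every WT1-negative array, and the lower 4 were lower. Cox8b, among the lower 4, passed the detection filter only through the WT1-negative arrays.

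Among the non-subunit genes that the symbols brought in, 1 of 8 probes rose and 2 fell in WT1-high aHSCs, and 1 rose and 3 fell in WT1-intermediate aHSCs. Of all tested probes, 26.5% and 24.5% rose and 33.1% and 33.5% fell. Cox4nb fell by 1.47 and 1.42 and its second probe by 0.75 and 0.74. Cox7a2l, which helps join respiratory complexes into supercomplexes, differed by 0.41 and 0.43 at its brightest probe and passed in neither comparison, although without WT1-negative replicate 3 both differences passed, at 0.67 (adjusted p = 0.013) and 0.69 (adjusted p = 0.012). Its other probe differed by −0.37 (adjusted p = 0.068) and fell by 0.53 (adjusted p = 0.015), so its direction is uncertain.

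That disagreement was not alone. Of the 22 member genes with more than 1 kept probe, 8 had probes of opposite sign in each comparison with WT1-negative aHSCs, and genes in which at least 1 probe rose while another fell included Atp5f1, Ndufa5, Ndufc2 and Ndufs4, chosen for description after their values were seen. Ndufa5 probe ILMN_2691460 measured 7.24, 6.58 and 8.12 in WT1-high, 7.82, 7.05 and 7.19 in WT1-intermediate, and 5.69, 5.08 and 5.35 in WT1-negative aHSCs, a rise of 1.95 ± 0.34 (adjusted p = 0.00051) and 1.98 ± 0.34. Its second probe, ILMN_1216007, measured 9.80, 8.91 and 10.08, then 9.97, 9.50 and 9.98, then 10.56, 10.64 and 10.47, a fall of 0.96 ± 0.26 (adjusted p = 0.0084) and 0.74 ± 0.26 (adjusted p = 0.031). In vivo and cultured arrays did not overlap at either probe. As the printed sequences show, the probe that rose had 19 G or C bases and the one that fell had 29.

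The other 3 of these genes followed the same order. Ndufs4 rose by 1.51 and 1.61 at its probe with 21 G or C bases, by 0.76 and 0.76 at that with 22 and by 0.62 and 0.78 at that with 23, and fell by 1.06 and 1.07 at that with 29. Atp5f1, the b subunit of the peripheral stalk, rose by 1.06 and 1.21 at its probe with 20 and fell by 0.61 and 0.80 at that with 24 and by 1.39 and 1.65 at that with 29. Ndufc2 fell by 1.05 and 0.97 at its probe with 34. Its probe with 18 was not above background on the WT1-negative arrays and was at least 1.82-fold and at least 1.61-fold higher in vivo. That probe passed the detection filter only through the in vivo arrays, where it was high, so its test is no support for a rise. In Atp5f1, Ndufa5 and Ndufs4, then, the probe poor in G and C rose and the probe rich in them fell. The Ndufc2 values had the same order. Among the other member genes with more than 1 kept probe the order did not always hold. In WT1-high aHSCs Ndufb6 differed by −1.01 at its probe with 26 G or C bases and by −0.36 at that with 28. Atp5j differed by −0.94 at 28 and by −0.66 at 33, whereas Ndufc1 kept the order, at −0.91 with 27 and −1.25 with 36. Atp5f1, Ndufc2 and Ndufs4 kept opposite calls in every fit that left out 1 array. Ndufa5 kept them in WT1-high aHSCs, and in WT1-intermediate aHSCs lost them when WT1-intermediate replicate 8 or any 1 WT1-negative array was dropped.

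**Figure D3:**
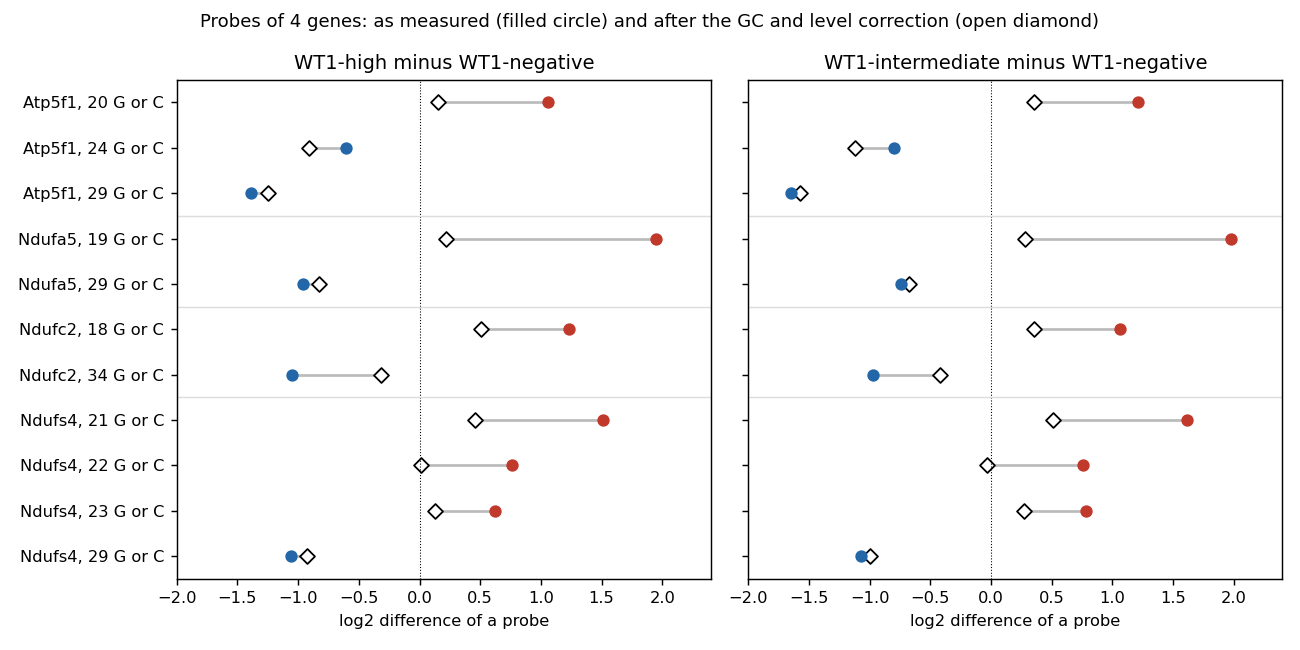
Log2 difference (horizontal axis) of each kept probe of 4 genes, labelled by its number of G and C bases, in WT1-high and WT1-intermediate against WT1-negative aHSCs. Filled circles are the measured differences (red rose, blue fell) and open diamonds those after correction for base composition and level; within each gene the probe with the fewest G and C bases lies farthest to the right before correction.

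Over all 101 member probes, the measured difference fell as the G and C content of the probe rose. Pearson's r across probes was −0.70 in WT1-high and −0.69 in WT1-intermediate against WT1-negative aHSCs, as a description of probes that share the same arrays and, in part, the same genes, and it was −0.25 and −0.27 over all 20573 tested probes. Between WT1-high and WT1-intermediate aHSCs it was −0.03 for members and −0.01 for all probes. Leaving out each array in turn gave −0.71 to −0.68 and −0.70 to −0.67 for the first 2 comparisons.

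Of the 16 member probes with at most 22 G or C bases, 14 rose and 1 fell in each comparison with WT1-negative aHSCs, with medians of 1.37 and 1.41. In the same class of all tested probes 58.4% and 55.8% rose, with medians of 0.62 and 0.60. Of the 70 members with at least 26, 3 rose in each and 46 and 41 fell, with medians of −0.73 and −0.65. In that class of all tested probes 39.3% and 39.9% fell, with medians of −0.25 and −0.27. On single arrays the class of at most 22 had medians of 7.92, 7.85 and 8.20 in WT1-high, 8.20, 7.74 and 8.16 in WT1-intermediate, and 6.52, 5.72 and 6.31 in WT1-negative aHSCs, without overlap. The class of at least 26 had medians of 9.75, 9.27 and 9.74, then 9.83, 9.64 and 9.73, then 10.27, 10.25 and 10.21, in the opposite order. The members that rose had a median of 22 G or C bases and those that fell 28.

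**Figure D4:**
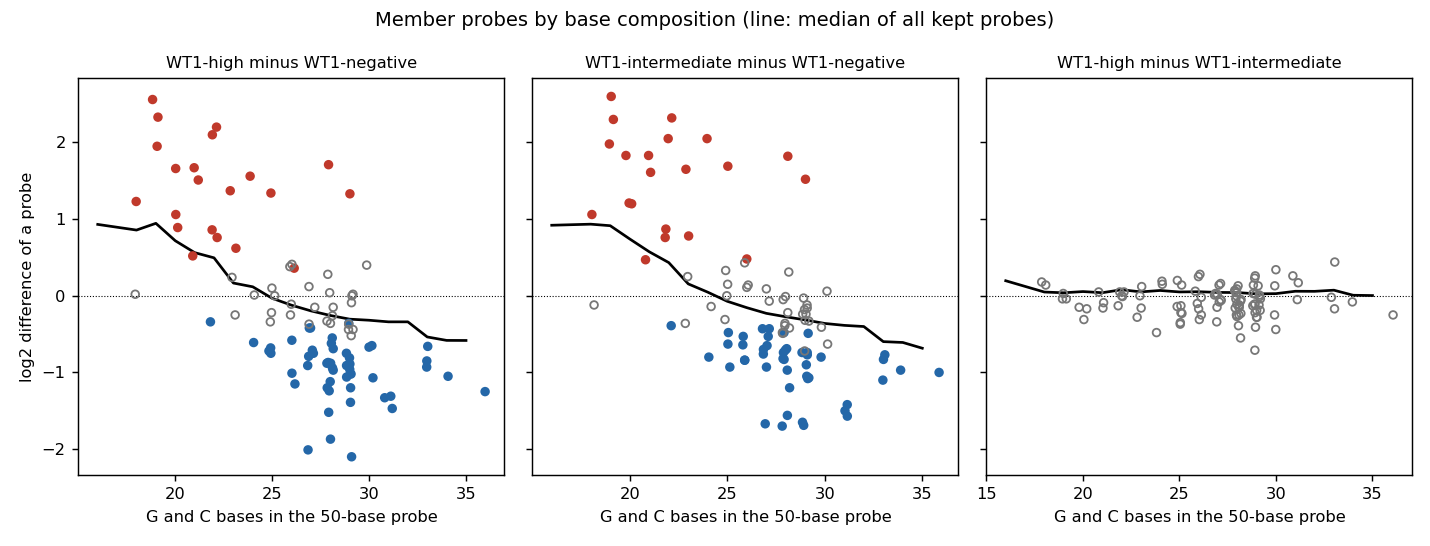
Log2 difference (vertical axis) of each kept member probe against the number of G and C bases in its 50-base sequence (horizontal axis, points spread slightly sideways), in the 3 comparisons. Red rose, blue fell, open did neither, and the line is the median of all tested probes by number of G and C bases; in the first 2 panels members fall from left to right more steeply than the line, and in the third both are flat near 0.

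The differences were therefore also computed after each array had been corrected for the G and C content of its probes and their mean level, with the trend taken from tested probes outside the members; this setting was chosen after the data had been seen. The counts became 12 up and 44 down in WT1-high aHSCs (11.9% and 43.6%), beside 25.2% and 30.4% of all tested probes. In WT1-intermediate aHSCs they became 10 up and 44 down (9.9% and 43.6%), beside 23.8% and 30.8% of all tested probes. The member medians were −0.37 and −0.39, beside −0.06 and −0.08 for all tested probes. Of the 21 that had risen, 11 still rose in WT1-high aHSCs, 9 no longer passed and 1 fell, and in WT1-intermediate aHSCs the numbers were 10, 10 and 1. Of the 51 and 46 that had fallen, 40 still fell in each. No gene was left with probes called in opposite directions, whereas a correction for G and C content alone left 2 in each comparison, Ndufa5 and Ndufs4 in WT1-high and Atp5f1 and Ndufs4 in WT1-intermediate aHSCs. After the correction for both, r with base content was −0.34 and −0.36. How far base composition and origin of the cells each shape these values cannot be told apart beyond this, since the correction takes out any true difference that runs with base composition.

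Read under the correction for both, several of the largest rises were smaller and the largest falls changed less. Atp5a1 rose by 0.74 (adjusted p = 0.0027) and 0.68 (adjusted p = 0.0047), Ndufb4 by 0.75 and 0.76 and Sdhd by 1.35 and 1.29. Ndufb9 rose by 1.45 and 1.56, Ndufb5 by 0.62 and 0.75 and Cox6c by 0.83 and 1.06. Ndufb10, whose probe has 28 G or C bases, rose by 1.77 and 1.86. Cox7b, at 0.40 and 0.61, no longer passed, and Cox7a2 differed by −0.51 and −0.19. Ndufa3 fell by 2.07 and 1.74, Cox7a1 by 1.56 and 1.38, Ndufa10 by 1.17 and 1.21 and Cox6a1 by 0.98 and 1.28. Ndufc1, with 36 G or C bases, differed by −0.24 and −0.20 and no longer passed. Atp5g3, with 22, fell by 1.24 and 1.36, more than before correction. Some calls changed among the smaller differences. Uqcrb fell by 1.01 in WT1-high aHSCs and no longer passed in WT1-intermediate aHSCs (−0.45, adjusted p = 0.071), and Cox6a2 no longer passed in WT1-high aHSCs (−0.70, adjusted p = 0.11). Cox6b2 in WT1-high (0.71, adjusted p = 0.038), Uqcrc2 in WT1-high (−0.38, adjusted p = 0.048) and Cox5a in WT1-intermediate aHSCs (−0.55, adjusted p = 0.013) passed after it, having not passed before. Sdhc still passed, but not with G and C content alone (−0.36 and −0.28, adjusted p of 0.11 and 0.20). At Ndufa5 the probe with 19 differed by 0.22 and 0.28 without passing and the probe with 29 fell by 0.83 and 0.68.

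The subunits encoded in mitochondrial DNA were given by the files for 7 genes that passed the filter, and their probes were poor in G and C, with a median of 22. Of them 6 rose in WT1-high and 5 in WT1-intermediate aHSCs, and 0 fell. Of all tested probes 26.5% and 24.5% rose, and of those with at most 22 G or C bases 58.4% and 55.8% rose. The ATP synthase subunit mt-Atp6 measured 12.30, 12.41 and 12.55 in WT1-high, 12.74, 12.38 and 12.71 in WT1-intermediate, and 10.12, 9.02 and 9.34 in WT1-negative aHSCs. It rose by 2.93 and 3.12, and the complex IV core subunit mt-Co2 by 2.65 and 2.82, with no overlap of arrays in either. After the correction 3 rose in each comparison, where 25.2% and 23.8% of all tested probes rose. They were mt-Atp6 at 1.02 and 1.17, mt-Co2 at 1.83 and 1.93 and the complex I subunit mt-Nd1 at 0.75 and 0.83. In WT1-intermediate aHSCs 2 that had risen then fell: mt-Nd4l, whose probe has 15 G or C bases, went from 2.10 to −1.11 (0.71 with G and C content alone), and mt-Cytb from 0.45 to −0.32. These 7 probes were themselves among those that set the trend, so part of their own difference was taken out. Outside the members, only 1 tested probe had at most 19 G or C bases and a mean level of at least 12. The trend is thus poorly held for bright probes so poor in G and C, and the corrected values are uncertain.

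Other nuclear genes of the mitochondrion are given beside the shares of all tested probes, of which 26.5% rose and 33.1% fell in WT1-high and 24.5% rose and 33.5% fell in WT1-intermediate aHSCs. Of 68 genes of the mitochondrial ribosome, which makes the mitochondrially encoded subunits, 6 rose and 42 fell in WT1-high and 7 rose and 41 fell in WT1-intermediate aHSCs, and after the correction 2 rose in each and 43 and 41 fell. Of 16 assembly factors, 2 rose and 9 fell, then 3 rose and 10 fell. Of 16 carriers and subunits outside the name prefixes, 2 rose and 7 fell, then 2 rose and 9 fell, and of 15 genes of protein import 1 rose and 6 fell in each, a share of falls near that of all probes. The 16 genes of the citric acid cycle and pyruvate dehydrogenase were divided, with 6 up and 3 down in WT1-high and 3 up and 4 down in WT1-intermediate aHSCs, and 5 up and 4 down, then 3 up and 6 down, after the correction. Of 13 regulators of mitochondrial biogenesis 1 rose in each comparison and 5 and 6 fell, and of 6 membrane carriers 1 rose and 1 fell, then 2 rose and 2 fell. After the correction the carriers had 1 up and 4 down, then 1 up and 3 down, while the falls of the other lists moved by at most 2 genes.

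Between WT1-high and WT1-intermediate aHSCs, both from injured liver, 0 of the 101 member probes rose, where 0.933% of all tested probes did, and 0 fell, where 2.66% of all tested probes did, by limma. At an unadjusted p under 0.05 there were 3, the smallest adjusted p was 0.14, and no member differed by more than 0.71 log2 units. The median difference was −0.06, beside 0.05 for all probes. With arrays scaled to a common median the sign turned, to 0.56 beside 0.45 for all probes. Of the 101 members 6 then rose, a smaller share than the 12.2% of all tested probes that rose. Of the genes at their brightest probe, Uqcrb had the smallest p, with a difference of −0.55 ± 0.21 (adjusted p = 0.20) and no overlap between the groups. Cox5a differed by −0.37 ± 0.16 (adjusted p = 0.27), Cox6a2 by −0.71 ± 0.36 (adjusted p = 0.35), Uqcrc2 by 0.28 ± 0.15 (adjusted p = 0.38) and Ndufv1, which carries the flavin of complex I, by 0.25 ± 0.14 (adjusted p = 0.39). None of the mitochondrial lists above had a gene that passed in this comparison.

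The study drew the 6 in vivo samples from 3 animals, and fits that held the pair of arrays as a block gave at most 1 passing member each. With all 3 pairs as a fixed block 0 members rose and 0 fell, where 2.94% and 5.13% of all tested probes did. With the pairs taken from the label numbers alone, which join replicates 1 and 8 only, Atp5e fell by 1.00 (adjusted p = 0.041). No other member passed, where 1.05% of all tested probes rose and 2.97% fell. As a random block, the probe ILMN_2611261 of Atp5j, coupling factor 6, rose by 0.47 (adjusted p = 0.044). Of all tested probes 3.5% rose and 5.02% fell in that fit. With the correction for base composition and level and all 3 pairs as a block, Uqcrb fell by 0.56 (adjusted p = 0.039). There 3.36% of all tested probes rose and 5.65% fell. No member probe passed under more than 1 of these 4 fits.

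Within a pair most members differed in the same direction, but the direction was not the same in all pairs. In pair 1 the median of WT1-high minus WT1-intermediate over the 101 probes was −0.15, with 27 higher and 74 lower. In pair 8 it was −0.25, with 27 higher and 73 lower. In the pair of WT1-high 29 and WT1-intermediate 30 it was 0.21, with 83 higher and 18 lower. The direction over most subunits thus differed between pairs of arrays within the same contrast, and that difference was not tested. Each pair set single arrays against each other, so animal, sorting and array cannot be told apart. Macrophage markers, at 7.50 to 7.91 against 9.46 to 9.94, were lower in the WT1-high array of every pair.

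**Figure D5:**
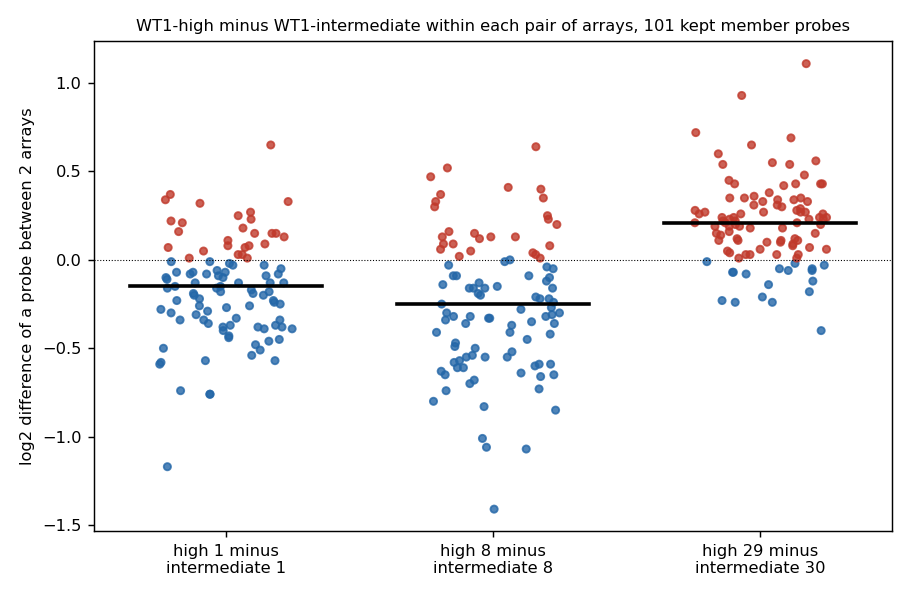
Log2 difference between the WT1-high and the WT1-intermediate array of each pair (vertical axis), for the 101 kept member probes (points, red above 0 and blue below), spread sideways for legibility. Black bars are the medians of −0.15, −0.25 and 0.21; the third pair lies on the other side of 0 from the first 2.

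Promoters of the subunit genes, 300-base windows around the start of transcription from RefSeq on build GRCm38.p6, were given for 59 of 71 structural subunit genes. Read on both strands, GCATGCGC, the core of the NRF1 motif, stood in 15.3% of them and in 3.05% of all 27025 promoters. The YY1 core AAGATGGC stood in 16.9% against 3.19%, and the ETS family core CCGGAAGT in 6.78% against 4.31%. Among the 31 genes with a promoter whose brightest probe fell in WT1-high aHSCs, 5 held the NRF1 core, 8 the YY1 core and 0 the ETS core. Among the 8 whose brightest probe rose, 0 held any of the 3, a number too small to set against the others. A match of letters is a description and not a bound site.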

How the data were processed

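RNA of sorted aHSCs was amplified and hybridised to an Illumina bead array, with every sample on its own array. The authors deposited unnormalised bead intensity values per probe, exported from BeadStudio, with control probes. Detection p-values, also deposited by the authors, give how a probe ranked against the array's negative controls. A joined table held identical intensities. No column of group comparisons was used, and 0 per-sample columns were left out.

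From these intensities, limma 3.58.1 in R 4.3.3 (neqc) corrected background on 936 negative controls, added an offset of 16, quantile normalised all arrays together and took log2; this followed the study's methods. Because of the offset, fold changes of dim probes are understated. Only probes that 3 or more arrays detected (p under 0.05) were tested. A linear model over the 3 groups with eBayes (6 residual and 5.23 prior degrees of freedom) gave two-sided p-values, Benjamini-Hochberg adjusted over all kept probes. P-values measure only the spread between these samples. Only 3 arrays per group limit the precision. Probe levels are not compared between probes.

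The members and all lists were chosen with earlier results of these data known. Named genes were, by brightest probe, the 10 largest rises and falls that passed without overlap in each comparison with WT1-negative aHSCs, the 5 smallest p of WT1-high against WT1-intermediate, and tissue isoform families with Sdha to Sdhd. An "at least" fold set the bright group's mean against the lowest detected signal on the dim group's arrays.

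Pairing of the in vivo arrays was checked, since the study used 3 animals and the file headers number the third pair alike (29, whereas the label of its WT1-intermediate sample has 30; that column was matched as the only one left in its group). Over all tested probes, deviations from the group means correlated at 0.35, 0.34 and 0.47 within pairs and at −0.39 to 0.03 between them, so blocked fits are reported. Over the members alone the pairs stood out less, at 0.22, 0.52 and 0.24 within and −0.56 to 0.36 between them. The G and C correction fitted, on each array, a spline with 4 degrees of freedom to tested non-member probes. A further gene with disagreeing probes is not reported here. Scripts were tested on simulated data. Alternatives covered background, offset, scaling, filter, array weights, blocks, probe choice and leaving out each array.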

Additional observations from a re-analysis of the deposited data

How the results depend on the processing

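Leaving out each array in turn gave 19 to 22 rises and 41 to 51 falls in WT1-high against WT1-negative aHSCs (median −0.54 to −0.33), 19 to 22 and 35 to 53 in WT1-intermediate (median −0.46 to −0.35), and 0 and 0 between them (median −0.21 to 0.09). Counts outside 1.5 times the reported ones were 12 and 10 rises after the G and C and level correction, 13 and 13 rises for the brightest probe per gene, and 20 and 13 falls when 2-fold was also required; fewer probes could qualify in the last 2. Scaling to a common median gave medians of −1.0 in WT1-intermediate against WT1-negative and 0.56 in WT1-high against WT1-intermediate. It gave 6 rises in the latter, where 12.2% of all probes rose, and it shifted all probes by −0.44 and 0.45. In WT1-high against WT1-intermediate the random replicate block gave 1 rise, where 3.5% of all tested probes rose. The fixed replicate block by label numbers gave 1 fall, where 2.97% of all tested probes fell. The corrected fit with a replicate block gave 1 fall, where 5.65% of all tested probes fell. The blocks changed no other count by over 1.5 times. The cause of these changes was not tested.

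Sign changes of the genes named by rule, at their brightest probe, were these. Cox7a2, which had passed, became −0.51 and −0.19 after the G and C and level correction. Sdhb against WT1-negative became, in WT1-high, −0.04 (median scaling), −0.09 (array weights), −0.04 (random replicate block), −0.09 and −0.17 (G and C correction without and with level) and −0.18 to 0.14 over arrays left out, and in WT1-intermediate −0.61, −0.02 with both corrections and −0.05 to 0.30. Ndufa4 became 0.03 (median scaling), 0.04 (cyclic loess), 0.23 and 0.14 (corrections) and −0.11 to 0.15 over arrays left out in WT1-high, and 0.04, 0.20, 0.04 and −0.09 to 0.03 in WT1-intermediate. Atp5g2 in WT1-intermediate became 0.10 (weights), 0.01 (random replicate block), 0.18 (G and C) and −0.10 to 0.15. Cox6b2 there became −0.02 (median scaling) and −0.10 to 0.36, Cox7a2l −0.28 (median scaling) and Cox6a2 0.05 (G and C). Cox5a between the in vivo groups became 0.26 (median scaling). Of the other values of named genes, 671 kept direction and call, 22 lost and 8 gained a call, and over arrays left out 537, 25 and 3.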
